A study of Arabidopsis thaliana with 8 samples.

Results

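The genes described here are 87 Arabidopsis thaliana genes whose channel ratio lay on the negative side on every array of 10-day plants. Each array compared total RNA of plants that overexpress PK12, in channel 2, with total RNA of non-transformed plants, in channel 1. The 10-day plants were measured on 4 arrays of expressed sequence tags (ESTs, spotted copies of cDNA fragments), labelled 56, 57, 60 and 61, and the 21-day plants on 4 arrays of another type, labelled b100, b90, t100 and t90. Plants of both ages were grown under long days. The labels state 2 independent experiments per age without saying which arrays belong to which, so a spread between arrays is partly technical. The labels do not name the promoter of the transgene, the plant line, the tissue harvested or the number of plants pooled.

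The measurement is a log2 ratio of the 2 channels, centred on the median of each array. Neither the dyes nor the numerator channel is given in the sources used here. With channel 2 as the numerator a negative value would mean a lower level in PK12 plants, and with channel 1 a higher one. Values are therefore given as negative or positive, without a direction of expression. The files hold ratios without intensities, so the signal behind a spot is unknown. Precision is limited by the number of arrays and by the 2 independent experiments per age from which they come. RNA came from whole samples, in which fewer cells of a type and less RNA per cell cannot be told apart.

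PK12 is a protein kinase of the LAMMER family, first described in tobacco. Kinases of this family phosphorylate SR proteins, the splicing factors rich in serine and arginine that help to choose splice sites. In green plants a large share of nuclear transcripts codes for proteins that are imported into the chloroplast, where they build the photosystems, fix carbon, make chlorophyll and process the RNA of the chloroplast's own genome.

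The members were chosen by their 10-day values. Of 3517 genes with a value on all 4 arrays, 94 (2.67%) departed from equal channels by 1.5-fold or more on the negative side of each array. The opposite threshold was met by 152 genes (4.32%). From the 94, the 7 genes RCA, PRK, LHCB4.2, PSAN, LHB1B2, AT5G25820 and BZIP61 were left out by name, which gave 87. The 10-day values below are thus a description and carry no test. Limma placed 176 of the 3517 genes (5.0%) on the negative side at 10 days at an adjusted p under 0.05, and 86 of the 87 members were among them, AT4G22666 being the exception. This overlap follows from the choice. The limma count fell to 29 without array 56, 57 without array 57, 66 without array 60 and 54 without array 61. This fit takes the 4 arrays as separate samples, although they come from 2 experiments. With pairs of arrays as a random block the count was 222 for 56 and 57 against 60 and 61, 102 for 56 and 60 against 57 and 61, and 912 for 56 and 61 against 57 and 60. The estimated correlation within pairs was -0.06, 0.20 and -0.80 in that order, and a negative correlation narrows the error of the mean.

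The 10-day means of the members ran from -1.77 to -0.72, with a median of -1.12, or from 1.65-fold to 3.40-fold from equal channels with a median of 2.18-fold. In 9 members the mean was below -1.5, in 27 between -1.5 and -1.2, in 19 between -1.2 and -1 and in 32 above -1. A 2-fold departure on every single array was reached by 12 members. The median of the members was -1.11 on array 56, -1.03 on array 57, -0.96 on array 60 and -1.07 on array 61, values that the rule held below the threshold on every array. The members' SD was widest on array 56, at 0.53, against 0.48 on array 57, 0.38 on array 60 and 0.34 on array 61. Array 56 held the lowest value for 29 members, array 57 for 21, array 60 for 19 and array 61 for 18. The SD over the 4 arrays had a median of 0.29 among members and of 0.39 among all genes. The rule cut off the high side of the members' values, which by itself narrows their spread.

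**Figure D1:**
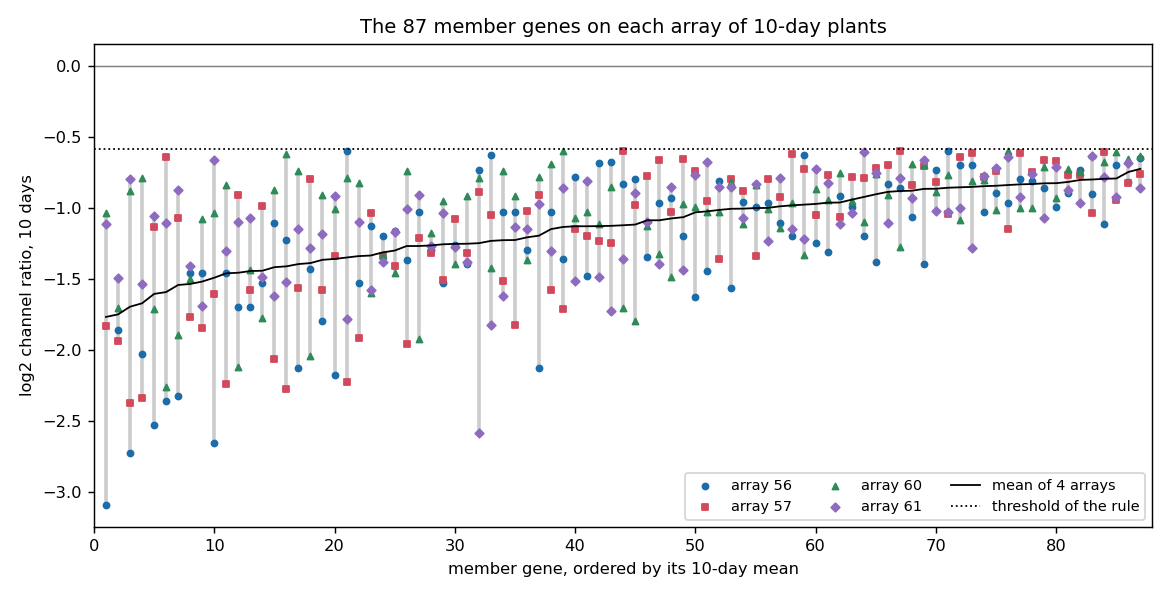
Log2 channel ratio (vertical axis) of each of the 87 members on the 4 arrays of 10-day plants, with members ordered by their mean along the horizontal axis. Points are single arrays, grey bars run from the lowest to the highest array, the black line is the mean and the dotted line the 1.5-fold threshold. Every point lies below the dotted line because the rule required it, and the arrays spread most among the members with the lowest means.

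The lowest mean belonged to AT3G07180, a gene with a locus code and no name in the gene table, like 72 of the 87 members, for which no role is given here. AT3G07180 read -3.09, -1.83, -1.03 and -1.11 on arrays 56, 57, 60 and 61, the order kept for all 10-day values below. Its mean of -1.77 ± 0.95 (SD, n = 4) owed most to array 56. AT2G30820 had nearly the same mean with little spread, at -1.86, -1.94, -1.70 and -1.49. AT5G49440 read -2.72, -2.37, -0.88 and -0.80 and AT4G29590 read -2.03, -2.34, -0.79 and -1.53. In AT5G49440 arrays 56 and 57 were both lower than arrays 60 and 61, and over all members this was true of the mean of each pair for 49 genes and untrue for 38.

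AT1G52870 (-2.36, -0.64, -2.26 and -1.11) and AT4G00910 (-2.32, -1.07, -1.89 and -0.87) were lowest on arrays 56 and 60. AT3G43540 (-2.52, -1.13, -1.71 and -1.05) had the same order of arrays as AT4G00910. AT3G12710 read -2.66, -1.61, -1.03 and -0.66. By contrast AT3G56510 at -1.53 ± 0.16 and AT5G24690 at -1.52 ± 0.33 (SD, n = 4) were below -1 on every array. Across the 87 members the values of 2 arrays correlated at a Pearson's r between -0.13 (arrays 56 and 61, and arrays 57 and 60) and 0.39 (arrays 56 and 57). Across all 3517 genes r ran from 0.23 to 0.61, and genes are not independent replicates. The members occupy a narrow part of the range, which limits r among them.

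The 8 steadiest members had SDs of 0.06 to 0.11. AT3G05220 read -1.29, -1.32, -1.18 and -1.26, the smallest SD of the group. UBC32, a ubiquitin-conjugating enzyme that takes part in the tagging of proteins for breakdown, read -1.19, -1.34, -1.33 and -1.38. Both lay on 1 EST each. AT1G05430 (-0.82 ± 0.08), AT2G14910 (-0.75 ± 0.09), AT4G29905 (-0.72 ± 0.10), AT2G37130 (-1.0 ± 0.11), AT1G63220 (-0.80 ± 0.11) and AT2G12400 (-0.94 ± 0.11; SD, n = 4) completed them, and 5 of these 6 means were above -1. A value near 0 leaves less room for spread when every array must lie beyond 1.5-fold.

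Of the 87 members 57 rested on 1 EST, 20 on 2 and 10 on 3 or more, 138 ESTs in all. Among the 81 ESTs of the 30 members with more than 1, 78 had a mean below 0, 69 were below 0 on all 4 arrays and 35 met the threshold on all of them by themselves. The 10 members with 3 or more ESTs included AT2G37130 with 8, whose single ESTs had means from -1.67 to -0.05. AT2G37130 thus met the rule with some ESTs near 0, and 4 of its 8 ESTs met the threshold alone. The 4 ESTs of AT3G15450 ranged from -1.60 to -1.05, the 5 of AT4G32060 from -1.80 to -0.92 and the 3 of AT5G24490 from -1.63 to -1.18. All ESTs of these last 3 genes had means below -0.9. In AT1G63220, AT1G74470 and AT2G14910, 1 EST each had a mean above 0, the highest at 0.24 in AT2G14910. Spotted cDNA can also bind transcripts of close relatives, and the part this played was not tested.

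With genes chosen on 3 arrays and the same names left out, the fourth array, which took no part in that choice, could be read. The genes that met the threshold there as well are the 87 members by construction. Of 109 genes chosen without array 56, 79.8% met the threshold on array 56, against 20.0% of all genes. Of 129 chosen without array 57, 67.4% met it there, against 11.9% of all genes. The share was 74.4% of 117 on array 60, against 19.9%, and 75.7% of 115 on array 61, against 11.8%. The median on the array not used was -0.99, -0.77, -0.84 and -0.91 in that order, closer to 0 than the members' own medians. Between 1 and 14 of the genes so chosen were at or above 0 on the array not used, most of them on array 57. The fourth array is not independent of the others, since an array of the same experiment may have been among the 3. Over all genes arrays 56 and 60, and arrays 57 and 61, correlated at r = 0.61. Between arrays so correlated, a share above that of all genes is largely fixed in advance. The shares are therefore a description and no replication of the choice.

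Near the threshold, AT5G55220, AT4G00780, AT4G32620 and AT3G55230 were just inside, each at -0.597 on its highest array. For AT5G55220 and AT4G00780 this was array 56, whose values were rounded more coarsely than those of the other arrays. Just outside were MCCB, AT2G31150, TROL and AT1G63980, at -0.583, -0.582, -0.576 and -0.573 on their highest arrays, with 4-array means of -0.96, -0.80, -0.85 and -0.87. TROL tethers ferredoxin-NADP reductase to the thylakoid membrane and MCCB is a subunit of methylcrotonyl-CoA carboxylase, which breaks down leucine in mitochondria. Within 0.05 of the threshold lay 17 members inside and 11 genes outside.

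Functions were read only for the 15 members (17.2%) that have a name in the gene table, as do 597 of all 3517 genes (17.0%). Of the 15, 5 code for chloroplast proteins: RH39, CHL, NdhU, TAPX and AT1G74470. The other 10 serve RNA processing, chromatin, protein turnover, energy and hormone metabolism, the cell wall and the cytoskeleton.

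RH39 is an RNA helicase of the DEAD-box type that helps to mature ribosomal RNA in the chloroplast. It read -1.69, -1.57, -1.43 and -1.07 and had a mean of -1.44 ± 0.27 (SD, n = 4), the lowest of the chloroplast members. CHL, a lipocalin of the thylakoid lumen that protects membrane lipids from oxidation, read -2.12, -0.91, -0.78 and -0.97. Array 56 was far below the others there, and the mean of -1.19 ± 0.63 leans on it. NdhU, a subunit of the chloroplast NADH dehydrogenase-like complex that carries electrons around photosystem I, read -0.96, -0.66, -1.33 and -1.39. TAPX, the ascorbate peroxidase bound to the thylakoid that removes hydrogen peroxide made by photosystem I, read -1.11, -0.92, -1.14 and -0.79 over 3 ESTs, all with negative means. AT1G74470, geranylgeranyl reductase, makes the phytyl tail of chlorophyll and tocopherol. It read -0.90, -1.03, -0.63 and -0.63 over 5 ESTs, which ranged in mean from -1.53 to 0.02.

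In RNA metabolism, VCR, a relative of the mRNA decapping scaffold VARICOSE, read -1.69, -0.91, -2.12 and -1.10. It had the lowest mean of the named members, -1.46 ± 0.56 (SD, n = 4), and was lowest on arrays 56 and 60. TRZ1, a tRNase Z that trims the 3′ end of precursor tRNA, read -1.03, -1.21, -1.92 and -0.91, with array 60 the lowest. CHC1, a subunit of the BAF60 type in SWI/SNF chromatin remodelling complexes, read -0.81, -1.36, -1.03 and -0.86. Its 2 ESTs had means of -1.53 and -0.50.

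SCPL49, a serine carboxypeptidase-like protein, read -0.68, -1.23, -1.11 and -1.48, over 2 ESTs at -2.09 and -0.16 in mean, of which 1 met the threshold on every array. AKINBETA1 is a beta subunit of SnRK1, the kinase that responds to low energy. Over 4 ESTs it read -0.81, -0.75, -1.0 and -0.76, with all 4 ESTs negative and none at the threshold on every array by itself. IAGLU, which joins glucose to the auxin indole-3-acetic acid, read -0.68, -1.24, -0.85 and -1.72 and was lowest on arrays 57 and 61.

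AT5G66390, peroxidase 72, belongs to the secreted peroxidases that act on cell walls. It read -1.53, -1.51, -0.95 and -1.03, and both of its ESTs were low, at -1.36 and -1.15. CSLA03, a cellulose synthase-like enzyme of the family that makes mannans, read -1.56, -0.80, -0.81 and -0.85, with array 56 far below the other 3. TUB6, a beta tubulin, read -0.96, -1.15, -0.60 and -0.64, close to the threshold on arrays 60 and 61.

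**Figure D2:**
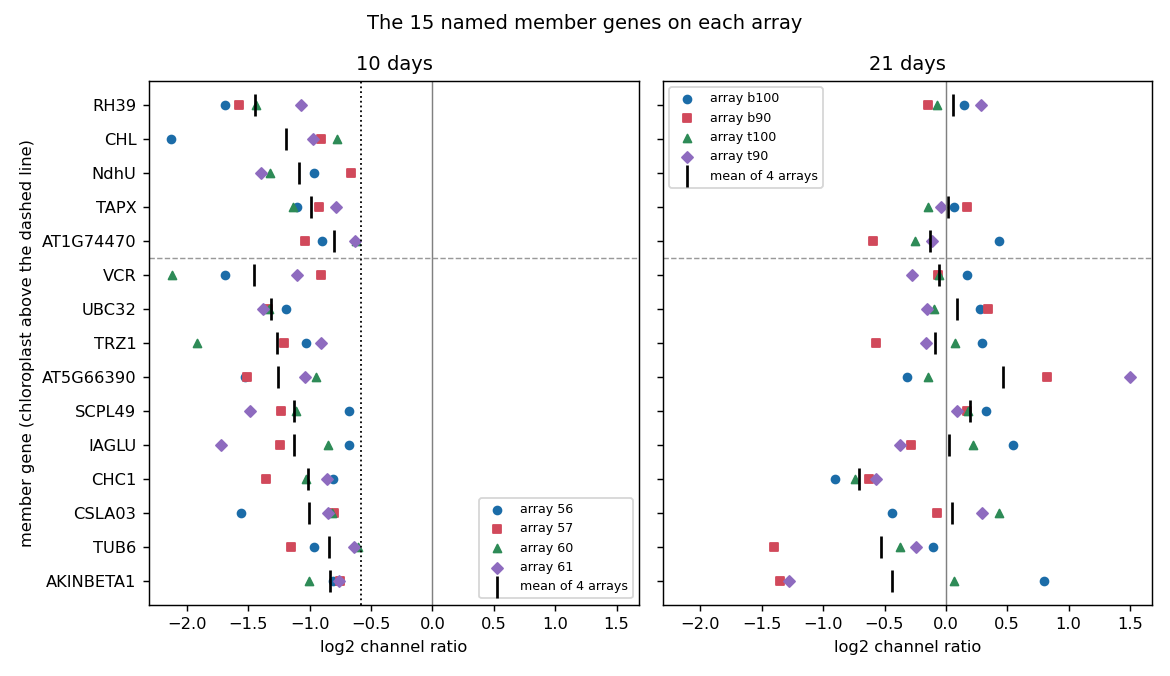
Log2 channel ratio (horizontal axis) of the 15 named members on each array of 10-day plants (left) and 21-day plants (right), with chloroplast proteins above the dashed line. Points are single arrays and black ticks the mean of 4 arrays; CHL and NdhU were not measured at 21 days. At 10 days all points lie left of the dotted 1.5-fold threshold, by the rule, while at 21 days CHC1 and TUB6 lie below 0 on all 4 arrays, SCPL49 above it on all 4, and the rest on both sides.

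Relatives of these genes, picked by name after the members were known, did not all share the negative values. The relatives shown all lie outside the members and have a name in the gene table. Relatives that are members themselves, or have a locus code alone, are not shown. The values below, that of the peroxidase PRX71 included, therefore do not describe whole families. VCS, the VARICOSE gene itself, was at 0.07 ± 0.11 (SD, n = 4), and SAPX, the stromal ascorbate peroxidase, at 0.15 ± 0.18. NdhS and NdhN, other subunits of the same complex as NdhU, were at -0.62 ± 0.60 and -0.06 ± 0.15. The SnRK1 beta-type subunits KINbeta2 and KINbeta3 were at -0.56 ± 0.98 and -0.27 ± 0.42. Among beta tubulins TUB1 was at 0.66 ± 0.43, TUB5 at 0.49 ± 0.48 and TUB9 at -0.51 ± 0.40. UBC34 was at -0.17 ± 0.83, CSLA01 at 0.38 ± 0.57 and scpl48 at 0.57 ± 0.60. None of these 12 relatives passed limma at 10 days (adjusted p from 0.0753 to 0.845). The peroxidase PRX71 did, on the positive side at 1.12 ± 0.44 (limma adjusted p = 0.0199), but of the 4 fits without 1 array it passed only in that without array 57 (limma adjusted p = 0.0292, against 0.0613 to 0.071 in the others). The difference between a member and its relative was not tested, since the members were chosen for their values.

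Chloroplast proteins made up 5 of the 15 named members (33.3%) and 73 of the 597 named genes (12.2%). The 73 were assigned from general knowledge after the members had been seen, so the shares are a description. By words in the gene name alone, 3 of the 15 (20.0%) and 17 of the 597 (2.85%) were chloroplast genes. Before genes were left out by name the share was 10 of 21 named genes (47.6%), because RCA, PRK, LHCB4.2, PSAN and LHB1B2 also act in the chloroplast. The 72 members with a locus code alone were not assigned, so the share does not cover them.

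The chloroplast genes outside the 94 can be described as well, although the rule that took out the 94 used these same 10-day values. Of these 63 genes, 42 (66.7%) had a negative mean at 10 days, with a median of -0.19, against 217 of 513 other named genes (42.3%), with a median of 0.09. In limma 6 of the 63 passed on the negative and 4 on the positive side, and 13 and 49 of the 513. With any single array left out the negative calls fell to 0 or 1 among the 63 (1 only without array 60) and to between 0 and 3 among the 513, so the counts of calls rest on having all 4 arrays. With 56 paired to 60 and 57 to 61 in a random block the negative calls were 2 of the 63 and 3 of the 513. They were 7 and 21 with 56 paired to 57, and 28 and 113 with 56 paired to 61, pairings with a negative correlation that narrows the error. The labels do not say which pairing holds. Taking out the 94 genes at the threshold lowers the negative counts on both sides of this comparison. It removed 10 of the 73 chloroplast genes, a larger share than of the other named genes. Genes at the opposite threshold stayed in, so negative and positive counts cannot be weighed against each other. At 21 days the 51 of the 63 that were measured had a median of 0.10, and 18 of them (35.3%) were negative, against 45.1% of the other named genes. The negative side at 10 days was thus not the side of most of these 51 genes at 21 days. The photosynthesis genes listed below differed from this, as most of them were negative at 21 days too.

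**Figure D3:**
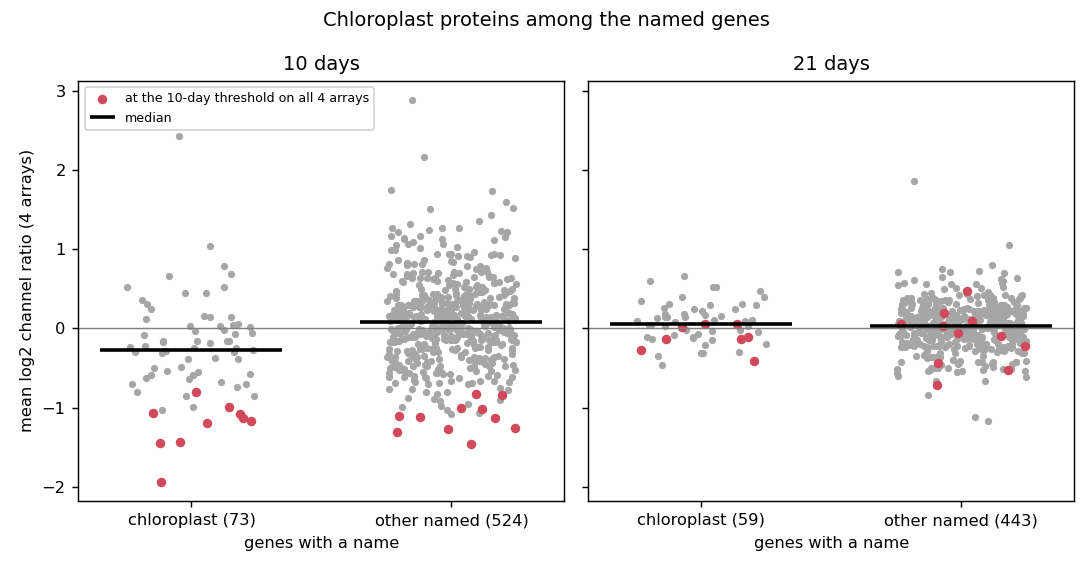
Mean log2 channel ratio over 4 arrays (vertical axis) of named genes for chloroplast proteins and of the other named genes at 10 days (left) and 21 days (right), with the number of genes in brackets. Red points are genes at the 10-day threshold on all 4 arrays, those left out by name included, grey points are the rest, and black lines are medians over all points. The chloroplast median was -0.28 at 10 days and 0.06 at 21 days, and that of the other named genes 0.08 and 0.03.

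Few genes of the pathways around these members were measured by name, 18 of the 101 listed, and 6 of the 18 had met the choosing threshold themselves (RCA, PRK, LHB1B2, LHCB4.2, PSAN and AT1G74470). Of the genes listed for photosystems and electron transport 8 were measured, all 8 negative with a median of -0.78, and 5 passed limma. Of those for carbon fixation and photorespiration 6 were measured, all negative with a median of -0.65, and 3 passed. Of those for chlorophyll synthesis 4 were measured, all negative with a median of -0.51, and 1 passed, the member AT1G74470. The median of all genes was 0.04, and 5.0% of them passed on this side. Of the 9 calls in the 3 lists 6 are the genes that met the threshold, so the choice had fixed them. The 12 listed genes outside the threshold were all below 0 in mean, with a median of -0.57, and 3 of them passed, SBPASE, LHCB4.1 and ATPC1. PSBW at -0.09 ± 0.39 and PSBY at -0.23 ± 0.45 (SD, n = 4) were among the 9 that did not. A further antenna gene of the same family, LHCB4.3, which the list does not hold, was on the positive side at 0.79 ± 0.32 (limma adjusted p = 0.0353). It did not pass without any one array (adjusted p from 0.0696 to 0.108), nor with 56 paired to 60 and 57 to 61 in a random block (0.07). It passed with 56 paired to 57 (limma adjusted p = 0.0289) and with 56 paired to 61 (0.00116). The estimated correlation within pairs was -0.06 and -0.80 in these pairings, and a negative correlation narrows the error of the mean. The 9 calls fell to 3 without array 56, 4 without array 57, 5 without array 60 and 3 without array 61. Among the genes of these lists that are no members, ATPC1, the gamma subunit of the chloroplast ATP synthase, was at -0.75 ± 0.35 (SD, n = 4; limma adjusted p = 0.0453). It did not pass when any array was left out (limma adjusted p from 0.0547 to 0.138), and neither did AT1G74470 (0.0623 to 0.0861). With 56 paired to 60 and 57 to 61 in a random block the 9 calls became 6, and ATPC1 did not pass (0.0839). The 9 became 10 with 56 paired to 57, and 15 with 56 paired to 61. ATPC1 passed in both (limma adjusted p = 0.0384 and 0.000296), where the negative correlation within pairs narrows the error. The labels do not say which pairing holds. HPR, the peroxisomal hydroxypyruvate reductase of photorespiration, was at -0.59 ± 0.19 and did not pass (adjusted p = 0.055). GSA1, PORB and CHLI2, which act earlier in chlorophyll synthesis, were at -0.64 ± 0.71, -0.37 ± 0.27 and -0.07 ± 0.32 and did not pass (adjusted p = 0.167, 0.187 and 0.839). At 21 days 5 of 6 measured genes for carbon fixation and photorespiration were negative (median -0.34). So were 3 of 3 for chlorophyll synthesis (-0.13) and 5 of 7 for photosystems and electron transport (-0.20). This compares with 47.2% of all genes, and 0 of the listed genes passed limma at 21 days. The lists were drawn up with earlier results of these arrays known.

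A marker of another tissue also passed at 10 days. The seed storage protein PAP85, 1 of 8 listed seed markers to be measured, was at 2.88 ± 2.20 (0.73 to 4.85 over the 4 arrays; limma adjusted p = 0.0485) at 10 days and at -0.18 ± 0.19 at 21 days. It did not pass at 10 days without any one of the arrays (limma adjusted p from 0.0568 to 0.118), nor with 56 paired to 60 and 57 to 61 in a random block (0.098). It passed with 56 paired to 57 (limma adjusted p = 0.0449) and with 56 paired to 61 (0.000107). In both of these pairings the estimated correlation within pairs was negative, which narrows the error, so these passes add no support. The root marker PYK10 was at -0.25 ± 0.13 at 10 days (adjusted p = 0.318) and at 0.44 ± 0.33 at 21 days. The part of tissue composition in the members' values was not tested. The planned leaf markers RBCS1A, CAB1, LHCB3 and PSAD-1 were not analysed here, so no separate marker of leaf tissue is given. The photosynthesis lists above cannot serve as one. Of their 18 measured genes 6 had met the choosing threshold, and the lists were drawn up with earlier results known.

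Position on the array was looked at through the order of EST identifiers, in the absence of slide coordinates. The median ratio of the 36 neighbours on either side of a member's ESTs ran from -0.57 to 0.31, with a median of -0.06, and was within 0.25 of 0 for 78 of the 87 members. It was lowest for AT1G70820 (-0.57), AT1G52870 (-0.50), AT3G43540 (-0.44) and AT4G00910 (-0.43). When this local median was taken off, 94 genes met the rule, and 60 of them were among the 87. Only 2 of the 138 member ESTs directly followed another member's EST. Along the chromosomes no members were adjacent genes, and 1 pair, AKINBETA1 and NdhU, lay within 5 genes of each other, at 4 steps.

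At 21 days the ratios of the members were independent of the choice, and no member could be told from equal channels. Limma called 0 of 2913 genes (0.0%) at an adjusted p under 0.05. Of the 87 members 74 had a 21-day value and 13 did not, and the members' adjusted p-values ran from 0.443 to 0.981. At an unadjusted p under 0.05, 5 of the 74 were on the negative side (6.76%, against 4.87% of all genes) and 1 on the positive (against 4.26%). None of the 74 met the 10-day threshold on all 4 arrays, as 0.103% of all genes did.

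The members' 21-day means ran from -0.78 to 0.71. Of the 74, 46 were negative (62.2%), against 47.2% of all genes, and the median was -0.10 against 0.02. The median shrank to -0.05 without array b90 or without array t90 and to -0.04 with the local median taken off. It was 0.09 on array b100, -0.14 on b90, -0.14 on t100 and -0.11 on t90, so 1 of the 4 arrays had the opposite sign. All 4 arrays were negative for 5 members (6.76%, against 8.31% of all genes) and positive for 4 (5.41%, against 8.51%), shares no higher than the background. All 74 were nearer 0 at 21 than at 10 days, which a choice by 10-day size favours by itself. The arrays of 21 days also spread less as a whole. The SD of all log10 values on an array was 0.162 to 0.195 at 21 days and 0.222 to 0.277 at 10 days. Each age was measured on its own array type and in its own experiments, so age cannot be told apart from these. The ages were not compared in a test here, since the members were chosen by their 10-day values.

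**Figure D4:**
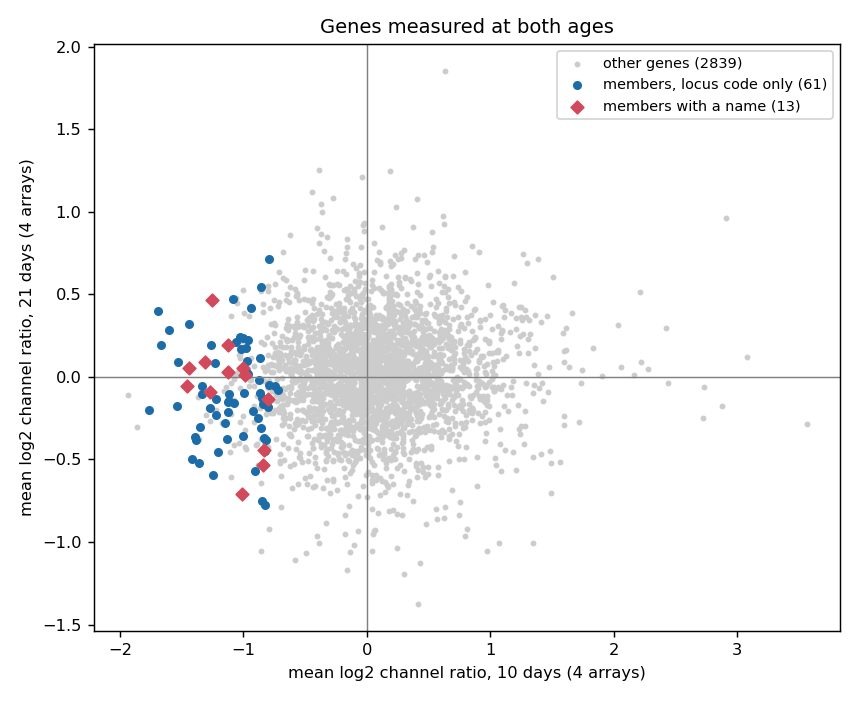
Mean log2 channel ratio at 10 days (horizontal axis) against that at 21 days (vertical axis), each over 4 arrays, for the 2913 genes measured at 21 days. Grey points are other genes, blue points members with a locus code only and red diamonds named members. The members lie left by the rule, and vertically they run from -0.78 to 0.71, within the spread of the grey points.

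The 6 lowest 21-day means belonged to AT1G65230, AT4G18380, CHC1, AT4G22666, AT4G23820 and TUB6. CHC1, the chromatin remodelling subunit, read -0.91, -0.63, -0.74 and -0.57 on arrays b100, b90, t100 and t90, the order kept for 21-day values. With a mean of -0.71 ± 0.15 (SD, n = 4) on 1 EST it was the nearest of the members to a call, with an unadjusted p of 0.00381 and a limma adjusted p of 0.443. AT4G18380 read -0.52, -0.66, -1.204 and -0.61 (limma adjusted p = 0.447). Both genes were thus negative on all 8 arrays. TUB6 read -0.10, -1.40, -0.37 and -0.25, and AT4G23820 read -0.16, -1.18, -0.22 and -0.72. Both were negative throughout, with array b90 the lowest. AT1G65230 read 0.20, -1.34, -0.19 and -1.78 and AT4G22666 read -0.63, -0.05, -1.78 and 0.09, so the first mean rests mostly on 2 arrays and the second mostly on 1. AT2G37520 was the other member negative on all 4 arrays, at -0.45 ± 0.43.

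The 6 highest 21-day means belonged to AT1G68490, AT1G52070, AT2G18980, AT5G66390, AT2G12400 and AT5G49440. AT1G68490 read 0.36, 0.23, 1.24 and 1.02 (mean 0.71 ± 0.49, limma adjusted p = 0.486) and AT2G12400 read 0.28, 0.75, 0.43 and 0.22 (adjusted p = 0.563). These were positive on all 4 arrays after being negative on all 4 at 10 days. AT5G66390, peroxidase 72, read -0.31, 0.83, -0.15 and 1.501, and AT1G52070 read -0.88, 1.96, 0.43 and 0.66. Array b100 was below 0 in both and in AT2G18980 and AT5G49440, while b90 and t90 were above it.

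Among the chloroplast members 3 had a 21-day value. RH39 read 0.15, -0.15, -0.07 and 0.29, TAPX 0.07, 0.17, -0.14 and -0.04 and AT1G74470 0.43, -0.59, -0.25 and -0.11. Their means of 0.05 ± 0.20, 0.01 ± 0.14 and -0.13 ± 0.43 (SD, n = 4) lay within the spread of the arrays around 0. Of the other named members, VCR was at -0.06 ± 0.18, UBC32 at 0.09 ± 0.25, TRZ1 at -0.09 ± 0.37, IAGLU at 0.03 ± 0.43 and CSLA03 at 0.05 ± 0.39, each with arrays on both sides of 0. AKINBETA1 read 0.80, -1.35, 0.06 and -1.28, with arrays b90 and t90 far below b100 and t100. SCPL49 read 0.33, 0.17, 0.18 and 0.09, positive on all 4 arrays.

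The members with several ESTs at 10 days and a locus code were spread on both sides of 0 at 21 days. AT5G24490 was at -0.50 ± 0.39, with an unadjusted p of 0.0426 and a limma adjusted p of 0.536, AT3G15450 at -0.52 ± 1.45 and AT4G32060 at -0.19 ± 0.47 (SD, n = 4). AT3G15450, which rested on 1 EST at 21 days, had 1 array at 1.05 and another at -2.43, the widest spread of the members. AT2G37130, the member with the most ESTs, read 0.32, 0.08, 0.13 and 0.40, all positive, and AT5G11420 was at 0.22 ± 0.53. Of the lowest genes of 10 days, AT3G07180 was at -0.20 ± 0.41, AT4G00910 at -0.17 ± 0.28, AT3G56510 at 0.09 ± 0.33, AT4G29590 at 0.19 ± 0.61, AT3G43540 at 0.29 ± 0.84 and AT5G49440 at 0.40 ± 0.66. The 10-day order of the members was thus not their order at 21 days in these examples.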

How the data were processed

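Per the labels, each array held total RNA of PK12 plants and of non-transformed plants in 2 channels. The authors deposited channel ratios on a log10 scale: every value within 0.01 of 0 was the log10 of a ratio with 3 decimals (tolerance 0.02). Array 56 was deposited in another form, rounded so that 1.98% of its ratios under 3 had 3 decimals (tolerance 0.005). This share was 100% on the other 7 arrays. The deposited median of array 56 was -0.000435. Members' values on array 56 repeat, as -1.028 does in AT5G19940, AT4G31115 and AT2G34310, so ties on it can come from rounding. The arrays had been centred near 0 before deposit. The scanner, background correction and spot filters are unknown here.

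Values were converted to log2 and centred on each array's median. ESTs with 4 values and a single gene in the platform annotation were matched to the gene table of TAIR10.1 (5209 of 5216 ESTs at 10 days, 3905 of 3910 at 21 days) and averaged per gene. The files name no build, so no coordinates are given, and no sequences were used. Each age was fitted with limma 3.58.1 in R 4.3.3 as an intercept, with eBayes and Benjamini-Hochberg adjustment over all genes. The fit was also run on simulated data with independent noise on 4 arrays. Those data held no arrays that share an experiment, so that run does not cover the dependence between the arrays here. Tables and figures were made with Python 3.11.15, pandas 2.3.3 and matplotlib 3.10.9.

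Members and gene lists were chosen with earlier results of these data known. The named genes are the 10 lowest 10-day means, the 8 smallest SDs, members with 3 or more ESTs, the 6 lowest and 6 highest 21-day means, chloroplast and listed genes and the 4 genes on either side of the threshold. The other named members follow by function, and AT2G37520, AT1G70820, LHCB4.3 and the relatives were named after their values were seen. Alternatives were no centring, scaling, quantile normalization, removal of the local median, other summaries over ESTs, other thresholds, robust eBayes, pairs of arrays of an age as random blocks and leaving out each array; for the 10-day counts the blocks and robust eBayes were added after seeing the data.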

Additional observations from a re-analysis of the deposited data

Results flagged for a closer look

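In 6 of 88 groups of 4 arrays screened, 1 array stood apart from the other 3 by Dixon's criterion, which chance alone gives in about 1 in 20 groups. At 10 days these were array 56 for CHL, the chloroplast lipocalin (-2.125, the others from -0.97 to -0.78), CSLA03 (-1.56, the others from -0.85 to -0.80) and AT4G23820 (-1.377, the others from -0.76 to -0.72). Array 61 stood apart for AT4G22666 (-2.582, the others from -0.89 to -0.73) and AT1G63220 (-0.962, the others from -0.77 to -0.73). In all 5 the array apart was the lowest, and the other 3 arrays still met the threshold. The rule cut off the high side of the members' 10-day values, so the rate of 1 in 20 does not hold for them. At 21 days array b100 stood apart for AT5G55220 (0.139, the others from -0.49 to -0.40).

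Negative on all 4 arrays of 10 days and positive on all 4 of 21 days were SCPL49, with a 21-day mean of 0.194, AT2G37130 with 0.235, AT2G12400 with 0.418 and AT1G68490 with 0.713. The difference between the ages was not tested for these genes, which were chosen by their 10-day values.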

How the results depend on the processing

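The group held 87 genes, and between 58 and 129 under other centring, scaling, summaries over ESTs or with 1 array left out. With a 2-fold threshold it fell to 12, and with any value below 0 it rose to 587. All 10-day genes called negative by limma, 176 in the report, became 302 with the local median removed and 29 to 66 without 1 array, where fewer arrays also widen the error. The 9 calls in the photosynthesis lists became 3 to 5 without 1 array. With pairs of 10-day arrays as random blocks, chosen after seeing the data, the 176 became 102 (arrays 56 and 60 against 57 and 61), 222 (56 and 57 against 60 and 61) and 912 (56 and 61 against 57 and 60), and the 9 became 6, 10 and 15 in that order. The estimated correlation within pairs was 0.20, -0.06 and -0.80 in the same order, and a negative correlation narrows the error. Robust eBayes gave 180 and 9. At 21 days limma called 0 genes under each of the 12 alternatives, and the number of members below 0 stayed between 42 and 47.

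The rule fixes the 10-day sign of the named genes when an array is left out, so their signs say nothing of stability. Of 328 recalculated 21-day values 26 changed sign, in 16 genes, and none passed the threshold; the cause was not tested. With the local median removed TAPX became -0.012, AT4G32620 0.17, TRZ1 0.07, IAGLU -0.034 and CSLA03 -0.071. Without 1 array in turn the values ran from -0.033 to 0.435 for AT4G29590, -0.124 to 0.493 for AT3G43540, -0.051 to 0.219 for AT3G56510, -0.222 to 0.444 for AT3G05220, -0.262 to 0.083 for AT2G14910, -0.312 to 0.045 for AT4G29905, -0.404 to 0.121 for AT1G63220 and -1.043 to 0.114 for AT3G15450. They ran from -0.039 to 0.065 for TAPX, -0.319 to 0.023 for AT1G74470, -0.024 to 0.121 for RH39, -0.394 to 0.017 for AT4G32620, -0.132 to 0.016 for VCR, -0.221 to 0.068 for TRZ1, -0.145 to 0.162 for IAGLU and -0.074 to 0.217 for CSLA03.

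No paired analysis was possible because the 2 ages share no replicate numbers; arrays of 1 age were only set in pairs as random blocks, in all 3 possible pairings, since the labels do not assign them to experiments. Promoter motifs and the composition of the first residues were planned and not run, since no sequences were used here.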

Other observations

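ESTs without a named gene also held steadily negative values at 10 days. Of 6752 such ESTs with 4 values 328 (4.86%) met the threshold on all 4 arrays, against 192 of 5204 named ESTs (3.69%). On the opposite side 357 unnamed and 232 named ESTs met it. The group described in the report therefore leaves out most of the spots with such values.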
